A study of Mus musculus with 8 samples.

Results

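Lysosomal hydrolases and membrane proteins were followed in the retinal pigment epithelium (RPE) and choroid of young and old mice. The set holds 34 genes listed by what their proteins do, and it was drawn up with earlier results of these arrays known. It covers glycosidases, sulfatases, lipid hydrolases and a peptidase of the lysosome, the proteins that present lipids to them, and proteins of the lysosomal membrane. Cathepsins and the subunits of the proton pump were kept apart. On the array 33 of the 34 genes had a probe set annotated to them alone, of 18193 genes measured in all, and Cd63 was not analysed here.

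The young group was 4 arrays of RPE/choroid from 4-month-old male C57BL/6 mice, and the old group was 4 arrays from 26-month-old males of the same strain, with no treatment or mutation named in either group. The submitters' design text gives each sample as 4 RPE/choroids of 2 animals, so each array is a pool and the spread between single mice was not measured. RNA was hybridised to Affymetrix Mouse Genome 430 version 2 arrays, 1 array per sample, and each value below is a probe set intensity on a linear scale as the authors normalized it. An old-minus-young difference is given in log2 units with its standard error (SE), and a gene was called higher or lower in old mice at an adjusted p under 0.05 from limma, fitted over all probe sets. Where several probe sets read a gene, the brightest over the 8 arrays stands for it. Intensities of different genes come from different probes and were not compared with each other.

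Lysosomal hydrolases are enzymes that cut proteins, lipids and sugar chains at acid pH. Most are made in the endoplasmic reticulum, tagged with mannose-phosphate in the Golgi, and carried by mannose-phosphate receptors to endosomes and lysosomes. The membrane proteins line the lysosome and move its products out, and a loss of single hydrolases causes lysosomal storage disease. RPE cells swallow the shed tips of photoreceptor outer segments every day and digest them in lysosomes, and macrophages of the choroid also carry many lysosomes. Transcription factors of the Tfeb, Tfe3, Mitf and Tfec family bind the letters CACGTG in promoters of many lysosomal genes.

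Those letters read the same on both strands. They were searched in RefSeq promoter windows (mouse build GRCm38.p6, 250 bases before to 50 bases after the gene's start) and stood in 8 of the 31 listed genes with a window (25.8%), against 8.09% of all 27025 genes with a window and 10.2% of the 14452 of them that were measured. The longer form GTCACGTG, which contains CACGTG, was found on one strand or the other in 7 of the 31 (22.6%). It stood in 2.55% of all genes with a window and in 3.77% of those measured. The form TCACGTGA, which also contains CACGTG, was found in Gla and Mcoln1 (6.45%). It stood in 1.12% of all genes with a window and in 1.63% of those measured. Galns, Asah1 and Npc1 had no window in the table. The stretches below are shown for Gla, Naglu and Lamp1, which rose with age and hold the letters, and for Mcoln1 and Sgsh, which hold them and did not pass the test. CACGTG is in capitals, the sequence runs 5′ to 3′ on the gene's own strand, and the distance is from the first capital to the start.
Gla, 194 bases before the start, chrX:134601182-134601211, minus strand: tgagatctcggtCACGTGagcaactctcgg
Gla, 227 bases before the start, chrX:134601215-134601244, minus strand: taagcgattgatCACGTGagcatctacgtc
Naglu, 73 bases before the start, chr11:101070009-101070038, plus strand: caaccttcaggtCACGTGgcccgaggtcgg
Lamp1, 61 bases before the start, chr8:13159088-13159117, plus strand: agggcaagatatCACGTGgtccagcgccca
Lamp1, 28 bases before the start, chr8:13159121-13159150, plus strand: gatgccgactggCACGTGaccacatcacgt
Mcoln1, 71 bases before the start, chr8:3500436-3500465, plus strand: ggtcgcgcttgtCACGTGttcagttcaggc
Mcoln1, 45 bases before the start, chr8:3500462-3500491, plus strand: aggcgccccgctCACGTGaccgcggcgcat
Sgsh, 29 bases before the start, chr11:119355522-119355551, minus strand: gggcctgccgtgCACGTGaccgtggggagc

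The Lamp1 promoter held the letters 4 times, the other times being 45 and 15 bases before the start, and Arsa, Gaa and Glb1 held them once each. A match of letters is a description of the sequence and not a bound site. Of the 8 measured genes with CACGTG, 3 were higher in old mice and 5 did not pass the test, with a median log2 difference of 0.15 and a range of −0.06 to 0.75. Of the 22 measured genes with a window but without these letters, 14 were higher, 1 was lower and 7 did not pass, with a median of 0.24 and a range of −0.29 to 1.08. Over all genes 11.8% were higher and 9.56% were lower. The genes with and without the letters were not tested against each other.

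Of the 33 measured genes, 20 were higher in old RPE/choroid, 1 was lower and 12 did not pass the test. Over all 18193 genes, 11.8% were higher and 9.56% were lower at the same threshold. A filter that left out probe sets of low mean level kept 12214 genes, of which 19.8% were higher and 15.5% were lower. All 33 genes of the set were kept by it, with 21 higher and 1 lower. The median log2 difference of the 33 genes was 0.24, against −0.02 for all genes, and 29 of them (87.9%) had a positive difference, against 46.5% of all genes. Most differences were small: Gusb and Laptm5 alone passed a fold over 2 with an adjusted p under 0.01, a pair of thresholds that 1.13% of all genes passed in the higher direction. In 22 of the 33 genes each old array lay above each young array (15.8% of all genes), in 1 each lay below (13.7% of all genes), and in 10 the ages overlapped. These 22 were the 20 called genes plus Sgsh and Ppt1.

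**Figure D1:**
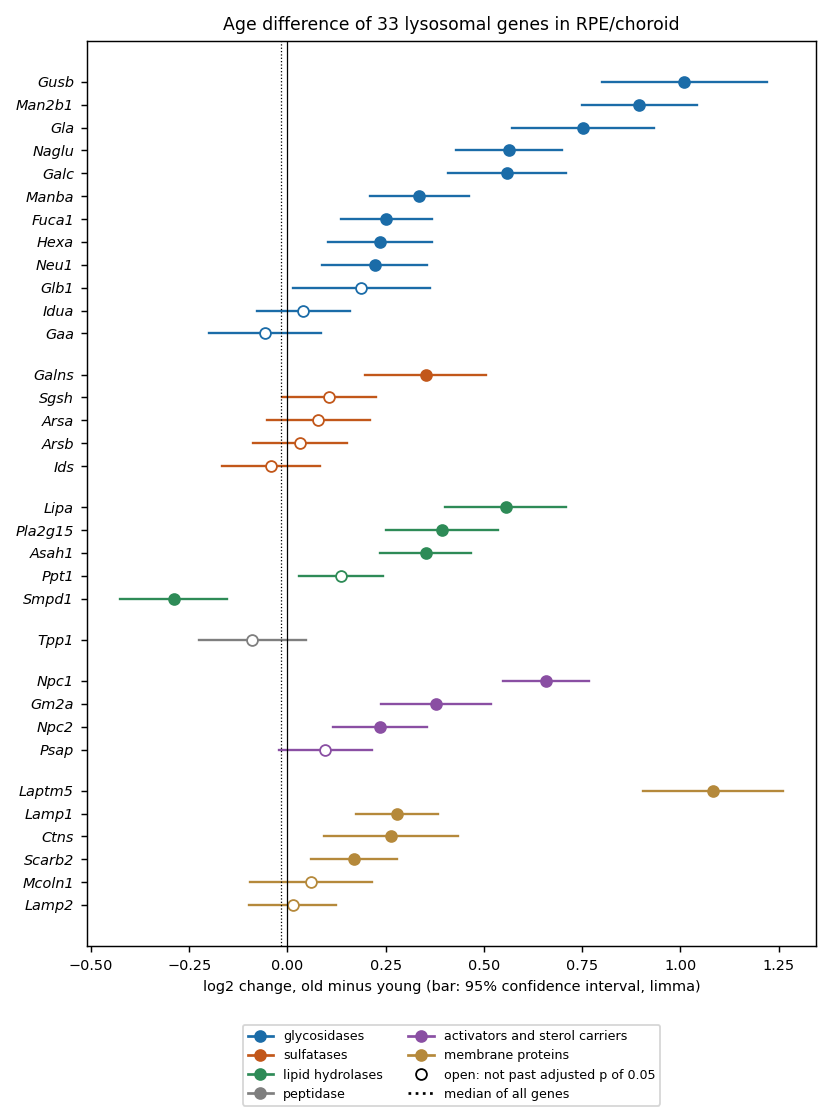
Each point is 1 of the 33 genes, placed by its log2 difference of old minus young with its 95% confidence interval from limma (horizontal axis) and grouped by the role of its protein. Filled points passed an adjusted p of 0.05, and the dotted line is the median of all genes. The points run from −0.29 for Smpd1 to 1.08 for Laptm5, and 29 of the 33 lie to the right of 0.

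The tissue was a mixture of cell types, and fewer cells of a type cannot be told apart from less RNA per cell in such samples. Of 18 macrophage markers 14 were higher in old mice and none was lower (median log2 difference 1.11), and their summed intensity was 32731 to 36910 on young and 57046.5 to 62456 on old arrays. The 4 that did not pass were Cd14 (1.11, adjusted p = 0.0685), Cd163 (0.27, adjusted p = 0.796), Csf1r (−0.04, adjusted p = 0.691) and Cx3cr1 (−0.18, adjusted p = 0.213). Of 14 RPE markers 10 were lower and none was higher (median −0.22), with sums of 136865 to 139259 on young and 117203 to 127806 on old arrays. The RPE markers Rpe65 (11578 ± 543 young and 11066 ± 254 old) and Rlbp1 (9842 ± 236 and 8142 ± 426) read strongly in both ages. No marker of any list was below an intensity of 1 on all arrays. Array medians were 129 to 135, so this does not show that each marker was detected. Endothelial markers were lower in 8 of 10, and fibroblast and scleral markers were higher in 3 of 10 (Fmod, Col6a1 and Pdgfra). Neutrophil markers stood at a mean centred log2 level of 1.82 on old array 2, against −0.69 to 0.30 on the other arrays, and inner retinal markers stood at 0.03 on old array 4, against −0.79 to −0.68 on the other old arrays. On young arrays the inner retinal markers stood at 0.45 to 0.61, and 8 of 13 were lower in old mice and none was higher (median log2 difference −0.98). Photoreceptor markers had a median of −0.59 with Opn1mw alone lower of 11, and ranged from −0.83 to 0.66 within the old arrays. Of 8 plasma cell markers Jchain was higher (3.88) and Irf4 and Prdm1 were lower. The shares over all genes, to set beside each of these marker counts, were 11.8% higher and 9.56% lower. With old arrays 2 and 4 left out, limma called 14 of the 33 lysosomal genes higher (5.86% of all genes) and none lower (3.85% of all genes), and 1 was lower at an unadjusted p under 0.05. On the old arrays kept, 1 and 3, macrophage markers still stood at mean centred levels of 0.32 and 0.48, against −0.51 to −0.37 on young arrays. The part of these cell types in the lysosomal differences was not tested.

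Glycosidases cut sugars from glycoproteins, glycolipids and glycosaminoglycans. Of 12 measured, 9 were higher (75%, against 11.8% of all genes) and none was lower, with a median log2 difference of 0.29. They were the largest role, and activators and sterol carriers had the same share called higher (75% of 4). Gusb, on chromosome 5, encodes beta-glucuronidase, which removes glucuronic acid from glycosaminoglycans such as heparan sulfate. Its intensity was 637, 754, 652 and 645 on the 4 young arrays and 1193, 1299.7, 1582 and 1356 on the 4 old arrays. The lowest old array was well above the highest young one, and the mean went from 672 ± 55.2 to 1358 ± 164 (SD, n = 4 each), a log2 difference of 1.01 (SE 0.094, limma adjusted p = 0.000189).

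Man2b1, on chromosome 8, encodes the lysosomal alpha-mannosidase that trims mannose from the sugar chains of glycoproteins. It read 1661, 1783, 1639 and 1698 on young arrays and 2858, 3212, 3407 and 3156 on old arrays. The ages were far apart, and the log2 difference of 0.90 (SE 0.065, limma adjusted p = 5.74e-05) was a fold of 1.86. Manba encodes the beta-mannosidase of the same breakdown. Its mean was 569 ± 24.4 in young and 718 ± 27.9 in old mice, with young arrays from 546 to 603 and old arrays from 677 to 738, and its difference of 0.34 (SE 0.056, adjusted p = 0.00421) was smaller than that of Man2b1.

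Gla, on chromosome X, encodes alpha-galactosidase A, which removes the end galactose from glycolipids and is missing in Fabry disease. It read 296, 321, 288 and 251 on young arrays and 460.2, 501, 514 and 467 on old arrays. No young array came near the old ones, and the log2 difference was 0.75 (SE 0.080, limma adjusted p = 0.000418). Galc encodes galactosylceramidase, the enzyme of myelin lipid breakdown that is missing in Krabbe disease. It read 506, 592, 529 and 541 on young arrays and 740.5, 788, 834 and 830.3 on old arrays. The mean was 542 ± 36.1 against 798 ± 43.8, a log2 difference of 0.56 (SE 0.067, limma adjusted p = 0.000783).

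Naglu, on chromosome 11, encodes alpha-N-acetylglucosaminidase of heparan sulfate breakdown. It read 639.5, 668, 609 and 649 on young arrays and 916, 889, 999 and 993 on old arrays. The spread within each age was small beside the gap, and the log2 difference was 0.56 (SE 0.060, limma adjusted p = 0.000415).

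The other glycosidases that passed the test moved less. Fuca1, which removes fucose from sugar chains, read 3034, 3077, 2828 and 2946 on young and 3494, 3656, 3503 and 3497 on old arrays, a difference of 0.25 (SE 0.051, adjusted p = 0.0105). Hexa, the alpha subunit of hexosaminidase A that is missing in Tay-Sachs disease, read 4455, 4490.5, 4437 and 4377 on young and 5569, 4768, 5273 and 5332 on old arrays. Its young arrays lay close together and its old arrays were spread, with a difference of 0.24 (SE 0.059, adjusted p = 0.0245). Neu1, the lysosomal sialidase, went from 412 ± 21.9 to 479.9 ± 21.6, a difference of 0.22 (SE 0.060, adjusted p = 0.0320). The calls of Hexa and Neu1 were near the threshold, and leaving out single arrays ended that of Hexa for 5 of the 8 arrays and that of Neu1 for 6.

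Glycosidases that did not pass the test were Glb1, Idua and Gaa. Glb1, the acid beta-galactosidase, had a log2 difference of 0.19 (95% interval 0.01 to 0.36, adjusted p = 0.125), with old array 2 at 918 inside the young range of 869.9 to 970.2. Idua, the alpha-iduronidase of heparan and dermatan sulfate breakdown, had 0.04 (interval −0.08 to 0.16). Gaa, the acid alpha-glucosidase that digests glycogen, had −0.06 (interval −0.20 to 0.09).

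Lysosomal sulfatases remove sulfate from glycosaminoglycans and sulfatide and are switched on by the modifying enzyme Sumf1. Of 5 measured, 1 was higher (20%, against 11.8% of all genes), none was lower and 4 did not pass the test, with a median log2 difference of 0.08. Galns, which acts on keratan sulfate and chondroitin sulfate, read 319.6, 293, 326 and 335 on young arrays and 371, 406, 438 and 411 on old arrays. Its ages did not overlap and the difference was 0.35 (SE 0.069, limma adjusted p = 0.00887). Sgsh, the sulfamidase of heparan sulfate, read 593 to 630.3 on young and 635 to 695 on old arrays, and this small gap without overlap gave 0.11 (adjusted p = 0.199). Arsa, which acts on sulfatide, had 0.08 (interval −0.05 to 0.21). Arsb, which acts on dermatan sulfate, had 0.03 (interval −0.09 to 0.15, and −0.03 after quantile normalization), and Ids, the iduronate sulfatase, had −0.04 (interval −0.17 to 0.08). A test of sulfatases against glycosidases was not made.

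Lipid hydrolases moved in both directions, with 3 higher, 1 lower and 1 that did not pass the test (median log2 difference 0.35). That was 60% higher and 20% lower of 5, against 11.8% and 9.56% of all genes. Lipa, on chromosome 19, encodes lysosomal acid lipase, which splits cholesteryl esters and triglycerides taken up by the cell. It read 1853, 2176, 2052 and 1968 on young arrays and 2726, 2987, 3135 and 2977 on old arrays. The ages were separate, with a log2 difference of 0.56 (SE 0.068, limma adjusted p = 0.000901) and a fold of 1.47.

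Pla2g15 encodes lysosomal phospholipase A, which acts on phospholipids. Its young arrays read 778, 827, 822 and 858 and its old arrays 1189, 1027, 1054 and 1051, with old array 1 highest. The difference was 0.39 (SE 0.063, adjusted p = 0.00357). Asah1 encodes acid ceramidase, which splits ceramide into sphingosine and a fatty acid. It read 3127, 3362, 3228 and 3314 on young and 3995, 4299.8, 4216 and 4124 on old arrays. The gap was several times the spread within an age, with a difference of 0.35 (SE 0.052, adjusted p = 0.00228).

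Smpd1, on chromosome 7, encodes acid sphingomyelinase, which makes ceramide from sphingomyelin, the step before acid ceramidase. It was the 1 lysosomal gene of the set that fell. It read 3169, 3131, 3108 and 3004 on young arrays and 2687, 2304, 2563 and 2613 on old arrays. Each old array was below each young one, and the difference was −0.29 (SE 0.061, limma adjusted p = 0.0120). With old arrays 2 and 4 left out it was −0.24 with an adjusted p of 0.0716. Ppt1, the thioesterase that removes palmitate from proteins, read 1620.4 to 1700.3 on young and 1789.8 to 1877 on old arrays. That separation was small, and the difference of 0.14 missed the threshold (adjusted p = 0.0793). Tpp1, the tripeptidyl peptidase and the single peptidase of the set, had −0.09 (interval −0.23 to 0.05, adjusted p = 0.334). A dimmer probe set of Tpp1 had −0.14 (limma adjusted p = 0.0928), with each old array below each young one.

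Activators and sterol carriers lift lipids out of lysosomal membranes and hand them to an enzyme or a transporter. Of 4, 3 were higher (75%, against 11.8% of all genes) and 1 did not pass, with a median log2 difference of 0.31. Npc1 is the membrane protein that moves cholesterol out of the lysosome. It read 501, 516, 532 and 501 on young arrays and 796, 828, 802 and 807 on old arrays. The arrays of each age lay within a narrow band, and the difference of 0.66 (SE 0.049, limma adjusted p = 6.27e-05) was a fold of 1.58.

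Npc2 is the soluble protein that passes cholesterol to Npc1. It read 7633, 7279, 6926 and 6953 on young and 8281, 8427, 8732 and 8439.5 on old arrays. Its difference of 0.24 (SE 0.053, adjusted p = 0.0168) was the smallest of the 3 called here, and the call was lost without young array 3 or old array 3. Gm2a, the activator that presents ganglioside to hexosaminidase A, went from 1827 ± 70.1 to 2377 ± 151, a difference of 0.38 (SE 0.062, adjusted p = 0.00406). Psap, the precursor of the saposins, had 0.10 (interval −0.02 to 0.21, adjusted p = 0.236).

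Of 6 measured membrane proteins, 4 were higher (66.7%, against 11.8% of all genes) and 2 did not pass the test, with a median log2 difference of 0.22. Laptm5, on chromosome 4, is a lysosomal membrane protein known mainly from blood-forming and immune cells. It read 1629, 1952, 1726 and 1701 on young arrays and 3394, 3996, 3951 and 3517 on old arrays. Each old array was far above each young one, and the difference of 1.08 (SE 0.079, limma adjusted p = 5.79e-05), a fold of 2.12, was the largest of the set. Macrophage markers, given above, had a median log2 difference of 1.11 over 18 genes, and 4 of them did not pass the test. The part of macrophages in the Laptm5 difference was not tested.

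Lamp1 is one of the most abundant proteins of the lysosomal membrane, and Lamp2 is its close relative with a part in autophagy. Lamp1 read 5967, 6074, 5865 and 5802 on young arrays and 7105, 7193, 7206 and 7266 on old arrays. Both ages were tight and well apart, with a difference of 0.28 (SE 0.046, limma adjusted p = 0.00417). Lamp2 read 5254, 5225, 5392 and 5555 on young arrays and 5461, 5525, 5357 and 5275 on old arrays. These ranges coincided, and the difference of 0.01 (interval −0.10 to 0.12, adjusted p = 0.880) was slightly below 0 after quantile normalization or with array weights.

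Ctns, the exporter of cystine, read 194, 204, 242 and 232 on young and 267, 254, 265 and 259 on old arrays, and its difference was 0.26 (SE 0.076, adjusted p = 0.0417). Scarb2, the receptor that carries glucocerebrosidase to the lysosome, read 3694, 3639, 3549 and 3586 on young and 4191, 3934, 4032 and 4115 on old arrays. Its difference was 0.17 (SE 0.048, adjusted p = 0.0400). Both calls were close to the threshold, and that of Scarb2 was lost whichever of the 8 arrays was left out and that of Ctns for 7 of the 8. Mcoln1, the calcium channel of the lysosomal membrane, had 0.06 (interval −0.095 to 0.21, adjusted p = 0.583).

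**Figure D2:**
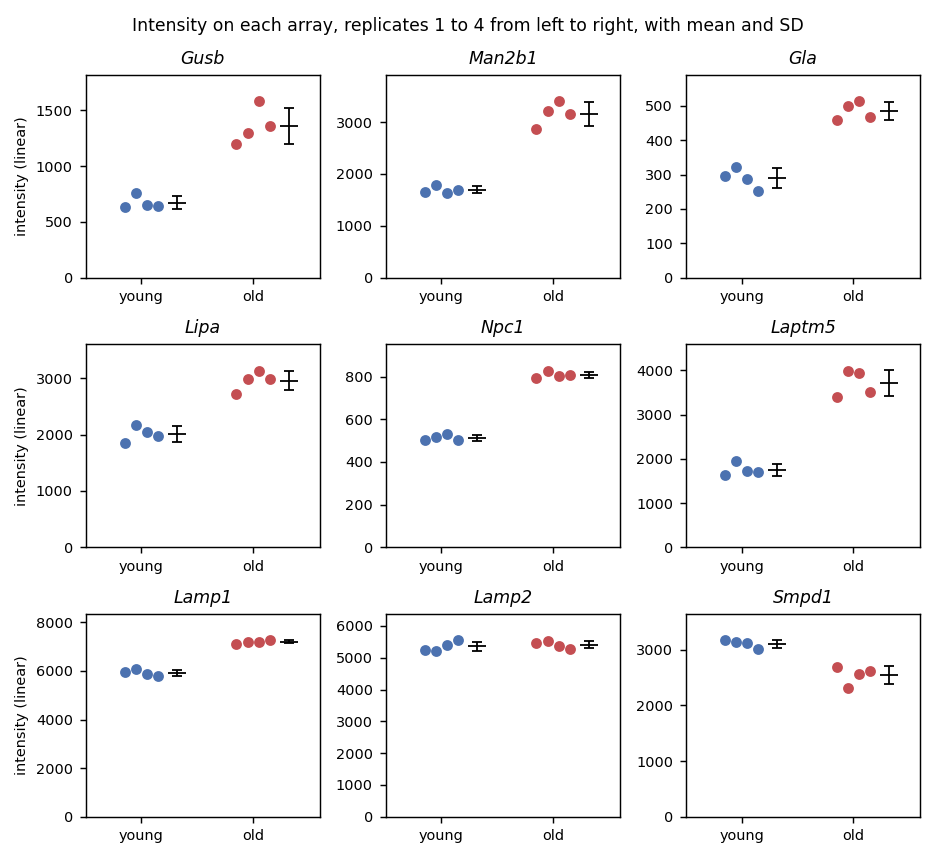
Intensity (linear scale, vertical axis from 0) of 9 genes on the 4 young and 4 old arrays, with replicates 1 to 4 from left to right and the mean with its SD beside them. In Gusb, Man2b1, Gla, Lipa, Npc1, Laptm5 and Lamp1 each old array lies above each young one, in Smpd1 each lies below, and in Lamp2 the ages overlap.

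Grouping the genes by the material they break down cuts across these roles. The grouping was made after the values had been seen and holds 3 to 9 genes a group, so its counts are a description. Over all genes 11.8% were higher and 9.56% were lower. All 3 genes for cholesterol and its esters (Lipa, Npc1 and Npc2) were higher, with a median of 0.56. All 4 genes for the sugar chains of glycoproteins (Man2b1, Manba, Fuca1 and Neu1) were higher, with a median of 0.29. The call of Neu1 was near the threshold and held in 10 of the 19 settings run. Glb1, which also acts on such chains and did not pass the test, was counted with the sphingolipid genes. Of 9 genes for sphingolipids 5 were higher, 1 was lower and 3 did not pass, with a median of 0.24. Of 5 genes for heparan sulfate, Gusb and Naglu were higher while Ids, Idua and Sgsh did not pass, with a median of 0.11.

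Probe sets to the same gene did not always give the same difference. The 33 genes had 80 probe sets, of which 36 were higher, 4 were lower and 40 did not pass the test, and 24 genes had more than one. The shares of 11.8% higher and 9.56% lower over all genes count 1 probe set per gene. Shares over all probe sets are not given here, so the 36 and 4 have no background to be set against. In 5 of the 24 (Gla, Gusb, Lipa, Pla2g15 and Scarb2) each probe set was higher. Gla gave 0.75, 1.11 and 0.52, Gusb gave 1.01 and 0.68, and Lipa gave 0.56, 0.64 and 0.67. The third probe set of Gla was very dim, with mean intensities of 7.66 in young and 11.0 in old mice. Scarb2 gave 0.17 by its brightest probe set and 0.81 (adjusted p = 0.000134) by a dimmer one that went from 479.5 ± 29.4 to 842 ± 59.3, so the size of its change depended on the probes. Laptm5 was higher by 4 of 5 probe sets, from 1.07 to 1.41, while the fifth and dimmest had −0.07. Both probe sets of Smpd1 were lower, −0.29 and −0.36 (adjusted p = 0.00996 for the second).

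Some genes were called by one probe set and not by another. Lamp2 had 4 probe sets, and one of them was higher, from 3095 ± 56.2 to 3877 ± 236 (difference 0.32, adjusted p = 0.00621), while the others had 0.01, 0.10 and 0.23 and did not pass. Ppt1 was higher by its second probe set (0.25, adjusted p = 0.0193), and Gaa was lower by its second (−0.19, adjusted p = 0.0452). Gm2a was the 1 gene with calls in both directions, 0.38 and 0.22 by its brighter probe sets and −0.31 (adjusted p = 0.0379) by a dim one that went from 176 ± 16.4 to 142 ± 13.6. Fuca1 gave 0.25 and 0.51 by called probe sets and 0.08 and −0.08 by the others. Man2b1, Galc, Neu1 and Galns were called by the brightest probe set alone: the others gave 0.20 for Man2b1, 0.15 and 0.03 for Galc, −0.13 and −0.24 for Neu1 and −0.19 for Galns, none past the test. Several of these others were dim beside the array medians of 129 to 135. Young and old means were 24.7 and 21.8 for Galns, and 36.5 and 37.5 for the dimmer of Galc. Those of Neu1 had 119 and 110, and 49.5 and 42.0. The brighter of Galc (128 and 142) and that of Man2b1 (146 and 166) were not so dim. For 9 of the 33 genes no probe set passed. Which transcripts each probe set reads was not analysed here.

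**Figure D3:**
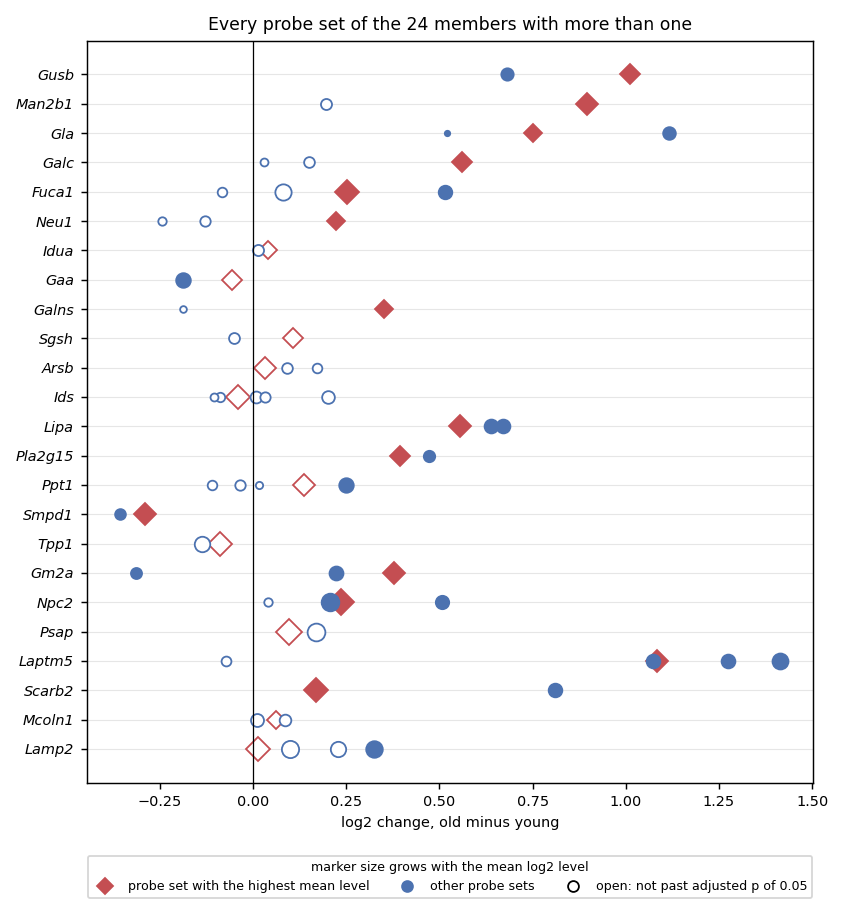
Log2 difference of old minus young (horizontal axis) for every probe set of the 24 genes with more than one; diamonds are the probe set with the highest mean level, circles the others, open markers did not pass an adjusted p of 0.05, and a larger marker has a higher mean level. Gm2a shows filled markers on both sides of 0, and Laptm5, Lipa and Gla show several filled markers to the right of it.

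The level of the lysosomal genes was also followed array by array beside the macrophage markers. Levels were averaged over each list after each gene had been centred on its mean over the 8 arrays. The 33 lysosomal genes stood at −0.17, −0.11, −0.16 and −0.15 on young arrays 1 to 4 and at 0.14, 0.13, 0.18 and 0.15 on old arrays 1 to 4. Macrophage markers stood at −0.47, −0.37, −0.51 and −0.49 on young arrays 1 to 4 and at 0.32, 0.71, 0.48 and 0.33 on old arrays 1 to 4. Young array 2 was highest of the young arrays on both lists. Old array 2 was highest of the old arrays for macrophage markers (0.71) and lowest for the 33 genes (0.13). Neutrophil markers also stood highest on old array 2 (1.82). The 20 genes called higher stood at −0.27 to −0.19 on young arrays and at 0.19, 0.24, 0.28 and 0.24 on old arrays 1 to 4. These 20 genes were picked by their difference on these same arrays, so their levels are not a separate result. Old array 1 was lowest of the old arrays for these 20 genes and for macrophage markers, but not for all 33 genes. Of the 20 higher genes, old array 3 was highest of the old arrays for 8, old array 2 for 6, old array 1 for 5 and old array 4 for 1. Old array 1 was lowest for 13.

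**Figure D4:**
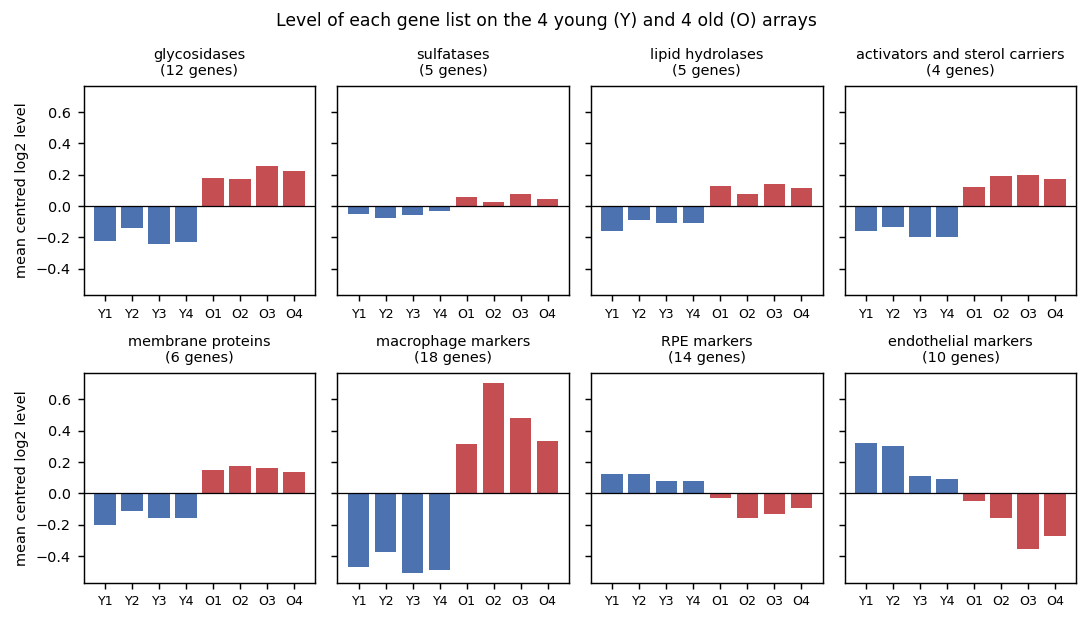
Mean centred log2 level (vertical axis; each gene minus its mean over the 8 arrays) of 5 roles of lysosomal genes (not the single peptidase) and of 3 marker lists, with bars for the 4 young (Y1 to Y4) and 4 old (O1 to O4) arrays. The 5 roles lie below 0 on young and above 0 on old arrays, macrophage markers do so by more, with O2 highest at 0.71, and RPE and endothelial markers go the other way.

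Other lysosomal genes were counted from lists written from textbook knowledge. Of 29 measured genes of other lysosomal proteins, 14 were higher (48.3%, against 11.8% of all genes). Another 3 were lower (10.3%, against 9.56% of all genes), and the median log2 difference was 0.13. The largest differences were in Acp5, a tartrate-resistant acid phosphatase of osteoclasts and macrophages (294 ± 53.7 young and 1055 ± 141 old, difference 1.85), in Cd68, a macrophage lysosomal glycoprotein (1.47), in Lgmn, the asparaginyl peptidase legumain (1.09), and in Hgsnat, the acetyltransferase of heparan sulfate breakdown (0.63). Those lower were Laptm4a (−0.40, adjusted p = 0.0196), a relative of Laptm5, Arsk, a sulfatase (−0.34, adjusted p = 0.00536), and Hyal2, a hyaluronidase (−0.20, adjusted p = 0.0355). Sumf1, the activator of the sulfatases, was higher by 0.33 (adjusted p = 0.00686).

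Proteins that deliver lysosomal enzymes or control their genes gave 8 higher (30.8%) and 1 lower (3.85%) of 26 (median 0.07). Over all genes 11.8% were higher and 9.56% were lower. Igf2r, the large mannose-phosphate receptor, went from 323 ± 30.2 to 494 ± 14.7 (difference 0.62, SE 0.074, adjusted p = 0.000783). M6pr, the small one, went from 2749 ± 39.7 to 3083 ± 102 (difference 0.16, SE 0.049, adjusted p = 0.0470), and Gnptab, which makes the mannose-phosphate tag, was higher by 0.32 (adjusted p = 0.0114). Vps33a, a protein of vesicle tethering, was higher by 0.34, and Sort1, a sorting receptor, was lower (−0.25, adjusted p = 0.0212).

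Within the Tfeb family, Tfec was higher in old mice, from 72.1 ± 5.94 to 196 ± 17.7, a log2 difference of 1.44 (SE 0.084, adjusted p = 3.34e-05). Tfec is known from macrophages and is also found in the RPE. The other 3 did not pass the test: Tfeb had −0.01 (adjusted p = 0.955), Tfe3 had 0.11 (adjusted p = 0.200) and Mitf, the melanocyte and RPE member, had −0.17 (adjusted p = 0.230). These are RNA levels, and the entry of the proteins into the nucleus was not measured.

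Cathepsins, the lysosomal proteases, gave 9 higher and none lower of 14, with a median log2 difference of 0.29. Ctsk had the largest (749 ± 58.0 young and 2141 ± 328 old, difference 1.50), followed by Ctsz (0.63), Ctsh (0.62) and Ctsa (0.59). The 5 that did not pass were Ctsc, Ctse, Ctsf, Ctsg and Ctso. Subunits of the proton pump, which acidifies the lysosome, gave 4 higher (17.4%) and 1 lower (4.35%) of 23, with a median of 0.04. Over all genes 11.8% were higher and 9.56% were lower. The higher ones were Atp6v0d2 (1025 ± 194 young and 3687 ± 372 old, difference 1.86), Tcirg1 (1.09), Atp6v1c1 (0.45) and Atp6v0d1 (0.20), and Atp6v1g2 was lower (−0.40). Atp6v0d2 and Tcirg1 are subunits known from osteoclasts and macrophages. The remaining 18 pump subunits did not pass the test. Differences between these lists and the hydrolases were not tested.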

How the data were processed

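RPE/choroid RNA of 4 young and 4 old pools was read on Affymetrix arrays. The authors deposited normalized intensity values on a linear scale; their methods name GCOS, RMA in affy, invariant-set normalization in Dchip2006 and BRB-ArrayTools, and which of these made the table is not given in the sources used here. Array medians were 129 to 135, 8 to 14 values per array were below 1, and arrays of one age correlated at 0.991 or more. Depth has no meaning for arrays, and their number limits the precision.

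Intensities were floored at 1 and log2-transformed. Old and young were compared with lmFit and eBayes of limma 3.58.1 in R 4.3.3 with no covariate, and p-values were adjusted by Benjamini-Hochberg over 45037 probe sets (45101 less 64 controls). GEO's platform annotation names 1 gene for 34945 probe sets, several for 932 and none for 9160, and the last 2 kinds named no gene. Each gene was read by 1 probe set, that of greatest mean log2 intensity over the 8 arrays. The labels do not say that the samples came from separate litters or cages, so p-values measure the spread between these pools. The script was tested on simulated data.

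The text names each measured member, and of each other lysosomal list the 4 largest changes past the test, every gene of a count of 5 or fewer and, chosen after their values were seen, Sumf1, M6pr, Tfeb, Tfe3 and Mitf. The members and lists were chosen with earlier results of these data known. Promoter windows came from RefSeq (GRCm38.p6). Alternatives covered a filter on low values, scaling between arrays, the floor, eBayes settings, array weights, a replicate block, arrays left out, other probe sets and other thresholds.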

Additional observations from a re-analysis of the deposited data

Results flagged for a closer look

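In 2 of the 66 groups of 4 arrays examined (33 genes in 2 ages), 1 array stood apart from the other 3 by Dixon's ratio of gap to range, and chance alone flags about 1 in 20 groups. Gusb, the beta-glucuronidase, read 754 on young array 2 against 637 to 652 on the other young arrays (ratio 0.865), still below the lowest old array. Fuca1, the fucosidase, read 3656 on old array 2 against 3494 to 3503 on the other old arrays (ratio 0.944), and all of them lay above the highest young array.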

How the results depend on the processing

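The count of 20 higher and 1 lower genes was 20 and 1 when adjusted over one probe set per gene, and the higher count lay between 19 and 21 under quantile normalization, median centring, a floor of 32, a filter on low values, eBayes with trend and robust estimation, or array weights. The share of all genes called moved more. It ran from 10.6% higher (quantile normalization) to 19.8% (filter on low values, of the 12214 genes kept). The share called lower ran from 7.39% (median centring) to 15.5% (the same filter). Median centring of the arrays moved the median log2 difference to 0.26. Leaving out 1 array at a time gave 15 to 18 higher genes (8.11% to 12.2% of all genes), 1 lower gene (5.24% to 9.71% of all genes) and medians of 0.23 to 0.25: Scarb2 lost its call for each of the 8 arrays (highest adjusted p 0.108), Ctns for each but young 3 (0.0966), Neu1 for each but young 2 and old 1 (0.0911), Hexa for young 1, 3 and 4 and old 3 and 4 (0.0640) and Npc2 for young 3 and old 3 (0.0550), while 16 of the 21 calls were kept throughout. Without old arrays 2 and 4, 14 genes were higher and 0 lower, and Galns, Fuca1, Neu1, Npc2, Scarb2, Ctns and Smpd1 lost their calls, with 4 old arrays reduced to 2. The mean of all probe sets gave a median of 0.19, Neu1 (−0.050) and Ids (0.00071) changed sign, Galns (0.08, adjusted p = 0.295), Gm2a (0.095, adjusted p = 0.208) and Neu1 lost their calls, and Lamp2 gained one (0.17, adjusted p = 0.0217). The second brightest probe set of the 24 genes with several gave 9 higher, 2 lower and a median of 0.16, ended the calls of Galns, Galc, Neu1, Man2b1 and Fuca1, gave Gaa as lower, and turned Galns (−0.19), Neu1 (−0.13), Sgsh (−0.053) and Ids (0.20). That of Galns was dim, with mean intensities of 24.7 in young and 21.8 in old mice. A fold over 2 with an adjusted p under 0.01 left 2 higher and 0 lower. Quantile normalization turned Arsb (−0.030) and Lamp2 (−0.0010), array weights turned Lamp2 (−0.0048), and among all genes quantile normalization gave 1921 higher and 2053 lower against 2145 and 1739. The cause of these changes was not tested. Ppt1 was called higher under 5 of the settings and Glb1 with array weights (0.25, adjusted p = 0.0348), while Ctns lost its call with array weights (adjusted p = 0.0732) and Scarb2 under quantile normalization (adjusted p = 0.0741). At an adjusted p under 0.05, Gla, Gusb, Lipa, Pla2g15 and Laptm5 were called under each setting, second probe set included, and Naglu, Manba, Asah1, Npc1 and Lamp1 under each setting but that one, which they lack with 1 probe set each. Of these 10, Gusb and Laptm5 alone passed the fold over 2. The labels number the replicates of both ages 1 to 4, and after removal of the age means, arrays of the same number correlated at 0.097, 0.019, 0.022 and 0.043, with replicate 1 alone best with its own number, so the numbers were not taken as pairs. The replicate block gave 16 higher (9.10% of all genes) and 1 lower (6.91% of all genes), without Hexa, Npc2, Scarb2 and Ctns.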
